A study of Mus musculus with 4 samples.

Results

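The 48 genes described here are imprinted mouse genes from 20 clusters or single loci, out of 34614 protein-coding and long non-coding genes placed on the genome. They were taken from a list of imprinted genes that was chosen by values measured in these data: it was drawn up after the occupancy of some of its genes, Gnas among them, was known. A gene was linked to INO80 in either of 2 ways. The authors' reproducible peak set could name it as the nearest gene, which held for 15 of the 48 through 17 of 2847 peaks, or a peak of a replicate could lie inside the gene or within 10 kb of it. Because the list was chosen on the occupancy itself, all shares and folds of these genes are a description, and no test was made on them.

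INO80 is the ATPase of a chromatin remodelling complex that slides and edits nucleosomes, and it was mapped by chromatin immunoprecipitation followed by sequencing in mouse spermatocytes at early zygotene, when homologous chromosomes start to pair. The 2 INO80 libraries and the 2 input libraries came from the same kind of material. All 4 were made from F1 mice of a DBA/2J x C57BL/6J cross whose germ cells had been brought into step. The animals received fertilysin for 7 days starting at 2 dpp (days post partum), which holds germ cells before meiosis. Retinoic acid at 9 dpp then let the cells enter meiosis together, and spermatocytes were isolated 8 days later on 28% Percoll. How many animals each library pooled is not stated in the labels, so the replicates may differ for technical as well as biological reasons. The mice carried no mutation named in the labels, and DBA/2J and C57BL/6J alleles were not separated in the peak files, so nothing below is a value for 1 parental allele.

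Imprinted genes are transcribed from only the maternal or only the paternal copy, and the choice is set by differentially methylated regions (DMRs), stretches of CpG-rich DNA that are methylated in either the egg or the sperm. Most germline DMRs are methylated in oocytes and lie at the start of a paternally expressed gene or non-coding RNA, while a few, at H19-Igf2, Dlk1-Meg3 and Rasgrf1, are methylated in male germ cells and lie between or upstream of genes. Male germ cells erase the inherited marks early, so that in spermatocytes both copies of a maternally methylated DMR are free of DNA methylation. After fertilisation ZFP57 holds methylation at imprints by binding a short methylated motif, and YY1, a DNA-binding protein that associates with the INO80 complex, has motif clusters in several imprinted DMRs.

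INO80 replicate 1 had 98100000 uniquely mapped reads and 5123 peaks, and replicate 2 had 82600000 such reads and 7836 peaks. The inputs had 70400000 and 39600000, all as rounded by the authors. Fold below means the linear enrichment that the authors deposited for a peak, taken from the strongest peak of each replicate in a region, and positions refer to GRCm38. With 2 replicates, the spread of a value is its 2 readings, and both are given throughout.

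Sequences around the starts of 6 paternally expressed genes or transcripts associated with maternally methylated DMRs show what kind of DNA is compared. The first 4 starts (Nap1l5, Plagl1, Kcnq1ot1 and the downstream Gnas start) had a peak within 1 kb in both replicates, and the last 2 (Mcts2 and Peg3) had one in neither. Each covers 250 bases before to 50 after the start, reads 5′ to 3′ in the direction of transcription, and comes from RefSeq on GRCm38.p6. Capitals mark CpG dinucleotides.
Nap1l5 start, chr6:58907077-58907376, minus strand: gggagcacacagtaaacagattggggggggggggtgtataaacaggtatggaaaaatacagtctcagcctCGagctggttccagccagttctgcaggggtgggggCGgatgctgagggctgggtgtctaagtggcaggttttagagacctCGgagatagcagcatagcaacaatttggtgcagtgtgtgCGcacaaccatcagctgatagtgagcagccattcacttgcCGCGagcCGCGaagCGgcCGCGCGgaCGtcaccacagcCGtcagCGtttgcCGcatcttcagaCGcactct
Plagl1 start, chr10:13090582-13090881, plus strand: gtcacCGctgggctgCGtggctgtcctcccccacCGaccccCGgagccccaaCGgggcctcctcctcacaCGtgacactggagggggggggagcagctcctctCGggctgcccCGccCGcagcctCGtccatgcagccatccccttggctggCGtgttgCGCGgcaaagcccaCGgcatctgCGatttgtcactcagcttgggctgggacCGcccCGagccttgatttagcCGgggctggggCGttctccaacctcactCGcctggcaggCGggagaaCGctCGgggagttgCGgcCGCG
Kcnq1ot1 start, chr7:143296498-143296797, minus strand: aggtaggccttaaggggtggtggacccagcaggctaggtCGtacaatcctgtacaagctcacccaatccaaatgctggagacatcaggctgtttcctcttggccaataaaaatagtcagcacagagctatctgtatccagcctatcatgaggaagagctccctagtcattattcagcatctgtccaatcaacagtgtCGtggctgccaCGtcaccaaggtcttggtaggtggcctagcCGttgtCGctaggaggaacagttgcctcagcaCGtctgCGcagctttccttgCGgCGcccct
Gnas start, chr2:174327499-174327798, plus strand: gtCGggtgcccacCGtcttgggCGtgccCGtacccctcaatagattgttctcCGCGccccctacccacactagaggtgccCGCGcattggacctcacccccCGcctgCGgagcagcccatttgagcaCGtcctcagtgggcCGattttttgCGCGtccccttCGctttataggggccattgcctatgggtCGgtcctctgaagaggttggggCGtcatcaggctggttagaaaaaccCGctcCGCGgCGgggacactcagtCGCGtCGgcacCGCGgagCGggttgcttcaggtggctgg
Mcts2 start, chr2:152686898-152687197, plus strand: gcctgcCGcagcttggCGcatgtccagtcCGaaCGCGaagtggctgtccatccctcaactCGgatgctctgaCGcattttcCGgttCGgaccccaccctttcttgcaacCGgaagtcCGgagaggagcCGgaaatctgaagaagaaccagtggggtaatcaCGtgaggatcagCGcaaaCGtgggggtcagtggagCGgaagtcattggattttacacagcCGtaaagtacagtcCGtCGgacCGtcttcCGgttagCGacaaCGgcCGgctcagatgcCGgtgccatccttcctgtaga
Peg3 start, chr7:6730370-6730669, minus strand: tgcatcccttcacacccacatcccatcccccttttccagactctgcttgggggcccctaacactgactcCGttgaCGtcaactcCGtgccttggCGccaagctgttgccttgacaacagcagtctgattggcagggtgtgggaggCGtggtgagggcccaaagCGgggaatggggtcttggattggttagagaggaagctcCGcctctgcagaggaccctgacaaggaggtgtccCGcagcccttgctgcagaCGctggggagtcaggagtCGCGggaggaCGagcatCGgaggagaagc
These windows held 17 CpGs in Nap1l5, 26 in Plagl1, 9 in Kcnq1ot1, 27 in Gnas, 25 in Mcts2 and 13 in Peg3. CpG numbers therefore overlapped between windows of starts with and without a peak within 1 kb. A peak within 1 kb need not cover the window itself. The Kcnq1ot1 peaks of the 2 replicates ended by position 143296487, outside the printed window. The peak of the authors' reproducible set ended at 143296508, just inside it. The motif TGCCGC (reverse complement GCGGCA), the letters ZFP57 reads when methylated, occurred 2 times in Nap1l5 and 1 time in each of Plagl1 and Mcts2. It did not occur in the windows of Kcnq1ot1, Gnas and Peg3.

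Most of the imprinted genes lay near INO80. A peak within 10 kb was found for 33 of 48 genes in replicate 1 (68.8%) and for 36 in replicate 2 (75.0%), and all 33 of replicate 1 were among the 36. Among all 34614 genes the shares were 22.9% in replicate 1, 31.7% in replicate 2 and 21.3% in both. Restricted to protein-coding genes, 30 of 43 imprinted genes (69.8%) had a peak in both replicates, against 26.8% of all protein-coding genes. Of the 5 long non-coding RNA genes, 3 had one in both. A peak of the reproducible set, which the authors kept at an irreproducible discovery rate below 0.05, lay within 10 kb of 21 imprinted genes, against 13.4% of all genes. The 15 that the set names are 31.2% of the 48, against 7.72% of all genes. Imprinted genes were longer, with a median span of 28652 bp against 12757 bp for all genes. With only peaks within 1 kb of either gene end counted, 23 of 48 imprinted genes (47.9%) had one in both replicates, against 13.5% of all genes. The part of gene length in these shares was not tested.

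**Figure D1:**
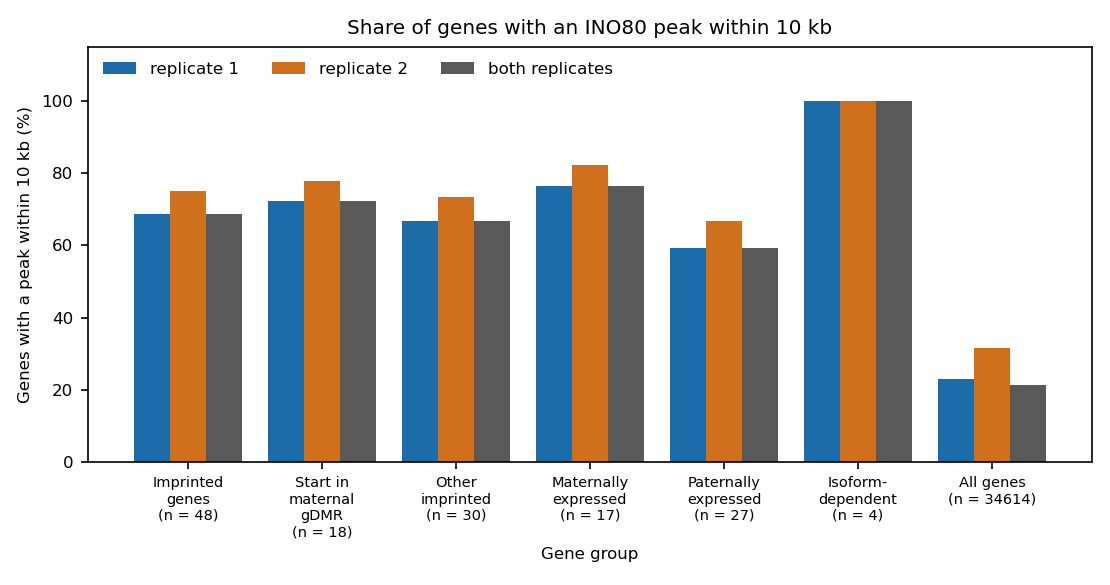
Bars give the percentage of genes (vertical axis) with an INO80 peak inside the gene or within 10 kb in replicate 1, replicate 2 and both, for imprinted genes, their subgroups and all genes (horizontal axis); gDMR is a maternally methylated germline DMR. Imprinted genes reached 68.8% in both replicates and all genes 21.3%, while the subgroups are small and were chosen with the occupancy known.

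The peaks near the 48 genes fell into 37 separate regions, since neighbouring imprinted genes often share 1 region. Of these, 30 had a peak in both replicates, 6 only in replicate 2 and 1 only in replicate 1. The reproducible set covered 19 of the 30. Replicate 2 had the higher fold in 28 of these 30, with medians of 3.49 in replicate 1 and 4.86 in replicate 2, and Spearman's rho between the replicates was 0.608 across these 30 regions, which come from the same 2 libraries and are not independent. The 2 exceptions were the Igf2r start and a region at Cct4 near Commd1. Counted by single peaks, the imprinted genes had a median fold of 3.44 over 32 peaks in replicate 1, against 3.23 for all peaks, and 4.23 over 36 peaks in replicate 2, against 3.59. Their median widths were 877 bp in replicate 1, against 765 bp for all peaks, and 1444 bp in replicate 2, against 1067 bp. Peaks near imprinted genes were thus close to the middle of each list and not among its extremes as a group. Peaks outside the reproducible set had the lower medians, with a fold of 2.86 over 12 peaks in replicate 1 and 3.24 over 17 in replicate 2. Those inside it had 3.70 over 20 peaks in replicate 1 and 5.08 over 19 in replicate 2. The ranges overlapped. Folds outside reached 3.48 in replicate 1 and 5.72 in replicate 2, and folds inside started at 2.93 and 4.1. The set was drawn from the same 2 replicates, so this is a description.

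**Figure D2:**
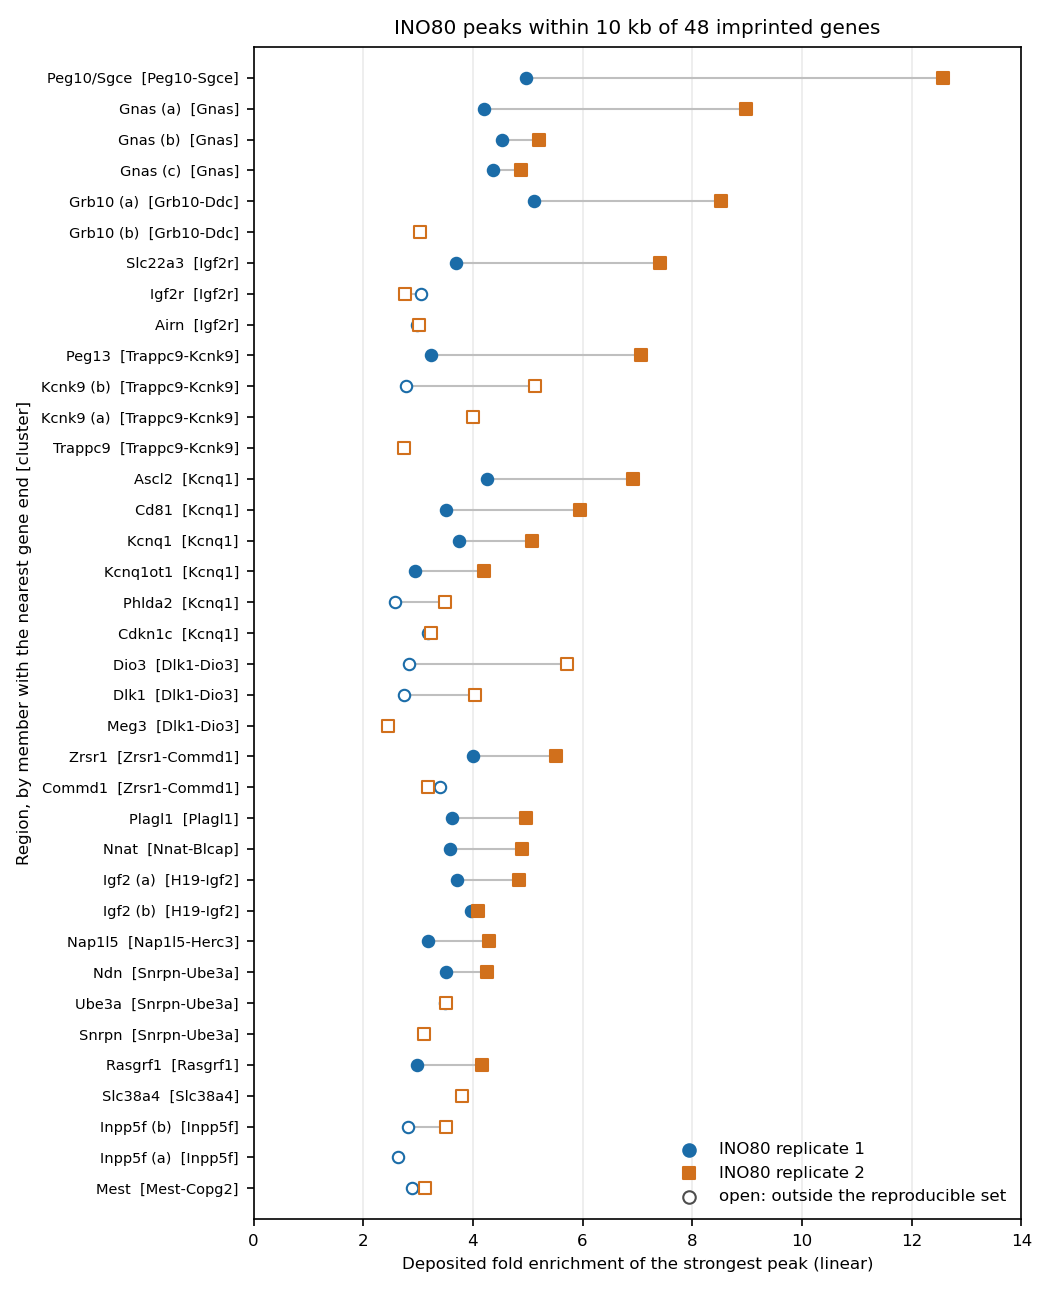
Each row is 1 of 37 regions, labelled with its cluster and the imprinted gene whose end, meaning either boundary of the gene, is nearest. The horizontal axis is the deposited linear fold of the strongest peak in INO80 replicate 1 (circles) and replicate 2 (squares). Open symbols lie outside the reproducible set. Letters after a name number regions by chromosome position. Peg10/Sgce reaches 12.6 in replicate 2 and 4.97 in replicate 1, and open symbols crowd at low folds.

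Gnas was the only one of the 48 genes with 3 peaks of the reproducible set. It encodes the stimulatory G protein alpha subunit and is a complex locus, whose alternative starts give a maternally expressed transcript (Nesp), paternally expressed ones (Gnasxl and the exon 1A transcript) and an antisense RNA (Nespas). The outermost region, chr2:174284037-174288436, covered the upstream Gnas start and had folds of 4.20 in replicate 1 and 8.98 in replicate 2. The authors placed its reproducible peak, 4525 bp wide, in the antisense transcript Gnasas1, at 1942 bp from the nearest start. The replicates differed most here among the Gnas regions, by a ratio of 2.14.

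The middle Gnas region, chr2:174295014-174301064, had folds of 4.53 and 5.21 in replicates 1 and 2. In replicate 1 it consisted of 2 peaks, the weaker with a fold of 2.93, which replicate 2 joined into 1 peak. Its reproducible peak measured 6128 bp, lay in an exon at 185 bp from a start in the authors' annotation, and ranked 38th in width among the 2847. The third region, chr2:174326697-174330697, covered the 3 downstream RefSeq starts and had folds of 4.36 and 4.87. Its reproducible peak was 4271 bp wide, in a 5′ UTR at 926 bp. The 3 Gnas peaks were the widest among the 17 named for imprinted genes, whose median width was 1883 bp, against 1781 bp for all 2847 reproducible peaks.

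**Figure D3:**
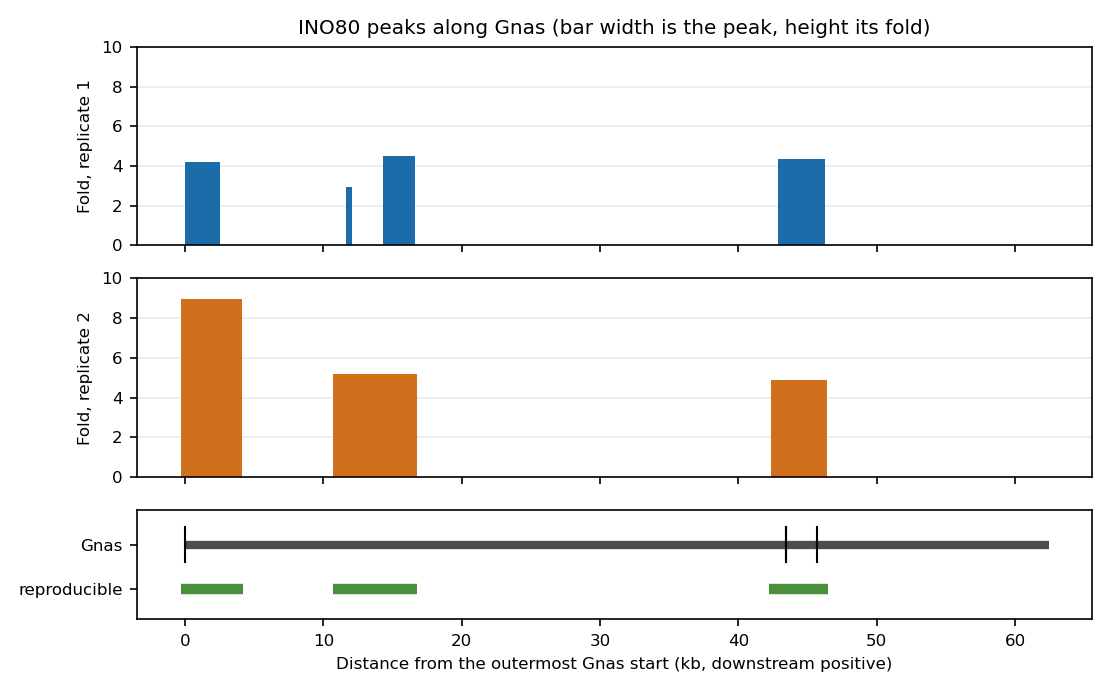
Peaks along Gnas in INO80 replicates 1 and 2: the horizontal axis is the distance in kb from the outermost RefSeq start, bar width is the extent of the peak and bar height its deposited linear fold. The lowest panel shows the gene with its RefSeq starts as vertical ticks and the reproducible peaks; the 3 reproducible peaks are 4525, 6128 and 4271 bp wide.

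The highest fold near the 48 genes, in replicate 2, belonged to the shared start of Peg10 and Sgce. Peg10 is a retrotransposon-derived gene needed in the placenta, Sgce encodes epsilon-sarcoglycan, and the pair is transcribed head to head from a maternally methylated DMR. The region chr6:4746708-4749358 had folds of 4.97 in replicate 1 and 12.6 in replicate 2. The replicate 2 peak ranked 4th of 7836 by fold, whereas the replicate 1 peak ranked 320th of 5123, so the rank near the top of the list rests on replicate 2. The reproducible peak was 761 bp from the start of Peg10, in a segment annotated as the Sgce promoter.

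Grb10, an adaptor that restrains growth through receptor tyrosine kinases and is expressed from the maternal copy in most tissues and the paternal copy in neurons, had the highest replicate 1 fold of the 48 genes. Its region chr11:12025365-12027160 had folds of 5.11 and 8.53, ranking 279th of 5123 in replicate 1 and 108th of 7836 in replicate 2. The reproducible peak lay in an intron, 1702 bp from the nearest start. A second region, chr11:12036045-12038046, covered the outer Grb10 start and had a peak in replicate 2 alone, with a fold of 3.04. Ddc, the neighbouring dopa decarboxylase gene, had no peak within 10 kb, its nearest lying 127342 bp away in replicate 1 and 127221 bp away in replicate 2.

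Zrsr1, Nap1l5, Nnat and Mcts2 are paternally expressed protein-coding genes that sit inside an intron of a host gene, each with a maternally methylated DMR at its start. Zrsr1, a splicing factor retrogene in Commd1, had folds of 4.0 and 5.52 in replicates 1 and 2 at chr11:22972017-22972997. The authors assigned the peak to the host Commd1, while their annotation placed it in the 5′ UTR of Zrsr1. Nap1l5, a nucleosome assembly protein relative in Herc3, had folds of 3.18 and 4.30 at chr6:58906347-58907240. Nnat, the proteolipid neuronatin gene in Blcap, had folds of 3.59 and 4.89 at chr2:157559681-157561416. These 3 inner genes were covered in both replicates, and the reproducible set held all 3 regions. Mcts2, the retrogene in H13, had no peak within 10 kb, and the nearest lay 17212 bp away in replicate 1 and 16634 bp in replicate 2. The hosts Herc3 and Blcap were counted as near a peak only through the region of the inner gene. Commd1, a copper homeostasis gene, also had a region at chr11:22990507-22991152, with folds of 3.4 and 3.18. It lay 5968 bp upstream of the Commd1 gene and overlapped a boundary of the Cct4 gene.

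Plagl1, a zinc finger regulator of a network of growth genes, had folds of 3.62 and 4.96 at chr10:13090428-13091525, a region the reproducible set names for the overlapping transcript Hymai. Mest, a hydrolase-family gene, had folds of 2.89 and 3.13 at chr6:30737188-30738504 and was not in the reproducible set. Copg2, a coatomer subunit gene next to it, was reached by this same region from 9050 bp in replicate 1 and 9079 bp in replicate 2, which made it the gene closest to the 10 kb limit on the inside. Inpp5f, a phosphoinositide phosphatase gene whose imprinted short transcript starts inside the gene, had folds of 2.82 and 3.51 at chr7:128687935-128688693, a region 76949 bp downstream of the nearest RefSeq start. The Inpp5f start itself had a peak in replicate 1 alone, with a fold of 2.64. Peg13, a non-coding RNA in an intron of Trappc9, had folds of 3.24 and 7.06 at chr15:72808268-72811143 in the reproducible set. Trappc9, which encodes a vesicle trafficking subunit, was reached in both replicates through the Peg13 region. It also had a peak in replicate 2 alone, 235 bp inside its higher-coordinate boundary, with a fold of 2.74. Kcnk9, a potassium channel gene of the same cluster, had folds of 2.77 and 5.13 in a region overlapping its higher-coordinate boundary. A further region inside the gene had a fold of 4.0 in replicate 2 alone.

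The Kcnq1 domain held the most regions of any cluster, 6, and all 6 had a peak in both replicates. Kcnq1ot1 is the paternally expressed antisense RNA that starts from the maternally methylated DMR inside Kcnq1 and silences the neighbouring genes in cis. Its start region, chr7:143295291-143296487, had folds of 2.95 in replicate 1 and 4.20 in replicate 2. That was the lowest fold among the 4 reproducible regions of the domain in each replicate, though Phlda2, outside the reproducible set, was lower in both and Cdkn1c was lower in replicate 2. The potassium channel gene Kcnq1 itself had folds of 3.75 and 5.08 at its start, chr7:143106433-143108214. Ascl2, a transcription factor of the trophoblast, had 4.25 and 6.93 at chr7:142967004-142969695. Cd81, a tetraspanin gene, had 3.51 and 5.96 at chr7:143052139-143053562. These maternally expressed genes were in the reproducible set together with Kcnq1ot1.

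Cdkn1c, the cyclin-dependent kinase inhibitor gene of the domain, had folds of 3.18 and 3.24 in replicates 1 and 2. Phlda2, which limits placental growth, had 2.58 and 3.48, and both regions were outside the reproducible set. Slc22a18, an organic cation transporter relative, was reached through the Phlda2 region from 2563 bp in replicate 1 and 2328 bp in replicate 2. Tspan32, a tetraspanin gene lying between Ascl2 and Cd81, had no peak nearer than 32653 bp in replicate 1 and 32711 bp in replicate 2.

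**Figure D4:**
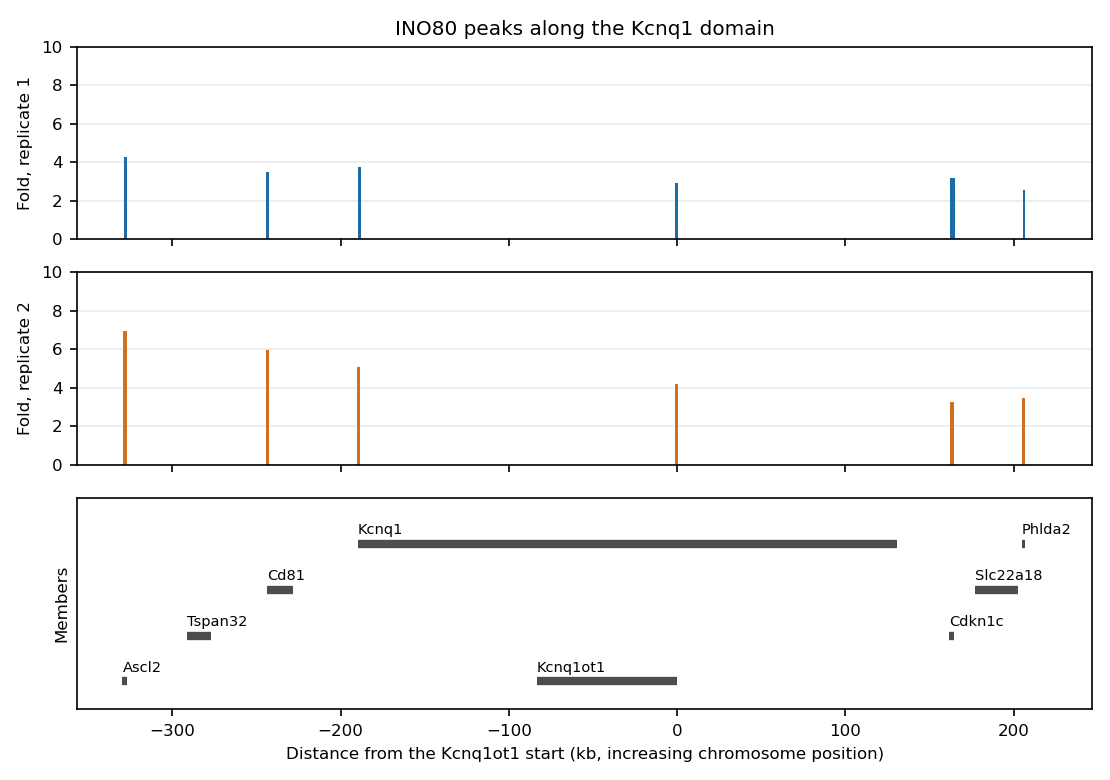
Peaks within 10 kb of the 8 imprinted genes of the Kcnq1 domain in INO80 replicates 1 and 2: the horizontal axis is the distance in kb from the Kcnq1ot1 start along the chromosome, and bar height is the deposited linear fold. The lowest panel draws the genes; 6 regions are present in both replicates and Tspan32 has none.

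In the Igf2r cluster, the antisense RNA Airn, which starts from a maternally methylated DMR in an Igf2r intron, had folds of 2.98 and 3.02, and the start of Igf2r, the receptor that clears insulin-like growth factor 2, had 3.04 and 2.76. Airn was the lower in replicate 1 and the higher in replicate 2, and neither region was in the reproducible set. Slc22a3, an organic cation transporter gene farther along the cluster, had 3.69 and 7.41 at chr17:12506527-12508049 and was in it. Airn and Igf2r thus stayed near the low end of the imprinted folds in both replicates, and Slc22a3 lay higher in both.

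The Snrpn-Ube3a cluster is the mouse counterpart of the Prader-Willi and Angelman region. Of its 5 genes, 2 had a peak within 10 kb in both replicates (40.0%), against 68.8% of the 48 and 21.3% of all genes. Snrpn, a splicing protein gene that starts at the cluster's maternally methylated DMR, had a peak at that start in replicate 2 alone, with a fold of 3.11 at chr7:60004422-60005187. In replicate 1 the nearest peak was 752905 bp from the gene. Ndn, which encodes necdin, had folds of 3.51 and 4.26 at chr7:62348225-62349248 in the reproducible set, and the ubiquitin ligase gene Ube3a had 3.48 and 3.51 at its start, outside it. Magel2, a MAGE-family gene, had no peak nearer than 28256 bp in replicate 1 and 24867 bp in replicate 2. Mkrn3, a makorin gene, was the gene closest to the limit on the outside, with a peak 10475 bp away in replicate 2 and 43640 bp away in replicate 1.

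At the loci whose germline DMR is methylated in male germ cells, 4 of 8 genes had a peak within 10 kb in both replicates. That is 50.0%, against 68.8% of the 48 and 21.3% of all genes. Igf2, the fetal growth factor gene, had 2 reproducible regions. At chr7:142658773-142661876 the folds were 3.72 and 4.84, a peak the authors named for the antisense gene Igf2os, and at chr7:142663864-142664612 they were 3.96 and 4.10, named for Igf2. H19, the non-coding RNA at the other end of that cluster, had no peak nearer than 81374 bp in replicate 1 and 80627 bp in replicate 2. The insulin gene Ins2 had its nearest 14251 bp away in replicate 1 and 14044 bp away in replicate 2. In the Dlk1-Dio3 cluster, Dlk1, a Notch-ligand relative, had folds of 2.74 and 4.04, and Dio3, a thyroid hormone deiodinase gene, had 2.84 and 5.72, neither in the reproducible set. Meg3, the maternally expressed non-coding RNA, had a peak in replicate 2 alone with a fold of 2.46, the lowest of the 36 replicate 2 peaks. Rtl1, a retrotransposon-derived placental gene, had its nearest peak 111212 bp away in replicate 1 and 23759 bp away in replicate 2. Rasgrf1, a Ras exchange factor gene, had folds of 2.97 and 4.16 at its start, chr9:89908362-89910623, in the reproducible set.

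The Peg3 cluster stood at the other extreme, with no peak within 10 kb of any of its 3 genes in either replicate. Peg3, a zinc finger gene of maternal behaviour and growth, had its nearest peak 417482 bp away in replicate 1 and 263249 bp away in replicate 2. Usp29, a deubiquitinase gene that shares its start region, had the nearest at 444149 and 289916 bp. Zim1, a zinc finger gene beside them, had it at 388034 and 233801 bp. The translation regulator Impact had its nearest peak 12843 bp away in replicate 1 and 12871 bp away in replicate 2, just beyond the limit. Slc38a4, an amino acid transporter gene, had a peak at its start in replicate 2 alone, with a fold of 3.81, and the nearest in replicate 1 was 191021 bp away. Of the 20 clusters and single loci, 16 had a region in both replicates and 13 had a reproducible one. The 3 without a region in either replicate were Peg3, Mcts2 and Impact.

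Set by expressed parent, a peak within 10 kb in both replicates was found for 13 of 17 maternally expressed genes (76.5%). It was found for 16 of 27 paternally expressed genes (59.3%), against 21.3% of all genes. The reproducible set named 5 of the 17 (29.4%) and 8 of the 27 (29.6%), against 7.72% of all genes. The direction of the first count was thus not seen in the second. The second count depends on which gene is nearest. Commd1 is named through the peak at Zrsr1, while Zrsr1 and Plagl1 are not named although reproducible peaks covered their starts. By location, a reproducible peak lay within 10 kb of 6 of the 17 and 11 of the 27, against 13.4% of all genes. All 4 genes whose expressed copy depends on the isoform (Gnas, Herc3, Blcap and Grb10) had a peak in both. The maternally expressed genes were longer, with a median span of 30734 bp against 16049 bp, and their Slc22a18, Copg2 and Trappc9 were reached in both replicates only through a region nearer to another imprinted gene. Taken by regions, those nearest to a maternally expressed gene had median folds of 3.44 and 4.30 over 10 regions in replicates 1 and 2, and those nearest to a paternally expressed gene had 3.21 and 4.28 over 16. The reproducible set held 4 of the 10 and 11 of the 16, the opposite direction to the count of genes. The folds of these groups overlapped, from 2.58 to 4.25 at maternally expressed and from 2.74 to 4.97 at paternally expressed genes in replicate 1. The 4 regions of Gnas and Grb10 had medians of 4.44 and 6.87.

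By DMR class, 18 genes start in, or have a transcript starting in, a maternally methylated germline DMR. Of these, 13 had a peak within 10 kb in both replicates (72.2%), against 20 of the other 30 (66.7%). Among all genes the share was 21.3%. The reproducible set named 7 of the 18 (38.9%) and 8 of the 30 (26.7%), against 7.72% of all genes. Regions nearest to the 18 had median folds of 3.60 and 4.93 over 14 regions, and those nearest to the 30 had 3.44 and 4.21 over 16. The class was set by gene, so a region among the 14 need not lie in a DMR. Gnas alone gave 3 of the 14. Of the 14, 11 were reproducible, and of the 16, 8 were. The ranges overlapped, with 2.82 to 5.11 for the 18 and 2.58 to 4.25 for the 30 in replicate 1. The difference between the classes was not tested, and neighbouring genes that share a region are counted more than once in the counts of genes.

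The starts were then divided by their sequence. The choice of genes did not use sequence, but the shares of starts with a peak are the same occupancy on which the list was chosen and remain a description. RefSeq gave 300-base windows for 54 starts of 37 of the genes. A peak lay within 1 kb of the start in both replicates at 25 of the 54 (46.3%), against 13.3% of 32851 starts of all genes. Windows were called CpG-rich at a GC content of at least 55% and an observed over expected CpG ratio of at least 0.6. Among CpG-rich windows, 16 of 22 imprinted starts (72.7%) had such a peak, against 33.3% of all CpG-rich starts. Among the rest it was 9 of 32 (28.1%), against 4.64%. Imprinted and all starts alike thus had peaks more often where CpG was dense. The median CpG ratio was 0.701 at the 25 starts with a peak in both replicates, 0.582 at 6 with a peak in 1 replicate and 0.306 at 23 with none. Several starts of 1 gene can share a peak, so these are not independent points.

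CpG density did not separate the starts completely. The 6 CpG-rich starts without a peak in both replicates belonged to Blcap, Commd1, Copg2, Grb10, Mcts2 and Zim1, and Mcts2 had the highest CpG ratio of all 54 starts, 0.991. At the other end Airn, with a ratio of 0.192, and Slc22a3, with 0.248, had a peak in both. Among CpG-rich starts, 8 of 10 in genes of the maternally methylated class had a peak in both replicates. In the other genes 8 of 12 did, against 33.3% of all CpG-rich starts.

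**Figure D5:**
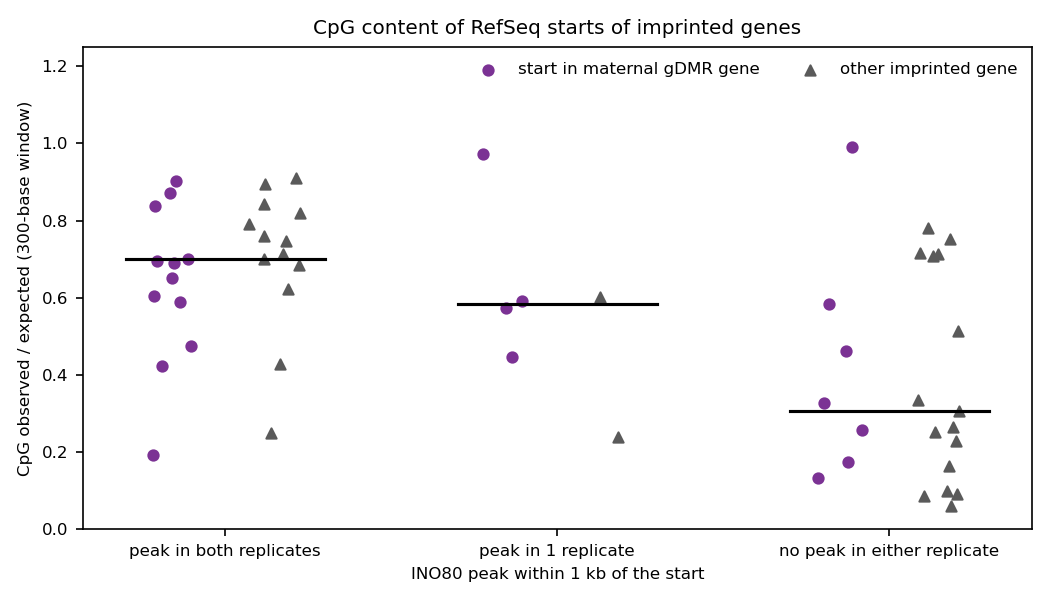
Each point is 1 of 54 RefSeq starts of 37 imprinted genes; the vertical axis is the ratio of observed to expected CpG in the 300-base window, the horizontal axis the peak within 1 kb in both, 1 or neither INO80 replicate, and lines are medians (0.701, 0.582 and 0.306). Circles are starts of genes of the maternally methylated germline DMR class and triangles starts of the other imprinted genes; the 3 groups overlap.

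The ZFP57 letters TGCCGC or GCGGCA were found in 13 of the 54 windows (24.1%), against 11.6% of all 32851, and in 40.9% of the 22 CpG-rich windows, against 26.0% of all CpG-rich ones. Here a window counts as having a peak when one lay within 1 kb of its start in both replicates. Over all 54, the letters were in 6 of 25 windows with a peak (24.0%) and in 7 of 29 without (24.1%). These shares pool windows of unlike CpG content. Among starts of all genes, also pooled over CpG content, the shares were 23.2% with a peak and 9.82% without. Among CpG-rich windows of imprinted genes the letters were in 4 of 16 with a peak in both replicates (25.0%). They were in 5 of 6 without (83.3%), those of Commd1, Copg2, Grb10, Mcts2 and Zim1, of which Grb10 had a peak in replicate 2 alone. The 16 starts with a peak belong to 13 genes, and the Gnas starts among them all lack the letters. No such split of CpG-rich starts was made for all genes. The 25.0% and 83.3% therefore have no background, and no link is drawn from them. The imprinted windows are few, several belong to 1 gene, and the difference was not tested. The YY1 letters GCCATNTT or AANATGGC, N being any base, were in 3 windows (5.56%), those of Ube3a, Mkrn3 and Slc38a4, against 6.05% of all. Both strands were searched, and matches of the motifs could overlap in part. A match is only a run of letters in this window, and the windows do not cover whole DMRs.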

How the data were processed

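INO80 ChIP-seq peaks of 2 replicates were used. Peaks of the 2 inputs were not analysed here. Per the submitters' processing notes, the tools were MACS2 2.2.7.1, deepTools 3.4.3, SAMtools 1.11, Picard 2.21.2, BWA and fastp, and the builds mm10 and GRCm38, with no roles or settings. Which control entered peak calling was not stated in those notes or the labels. The authors deposited, per replicate, broad peaks with a linear fold (ratio) and −log10 p and q values, and these were used as they stand. The authors also deposited 1 reproducible set with nearest gene, distance and annotation class but no signal, and read numbers per library, rounded, per the file headers. The replicates carry different dates in their peak names, so replicate and date cannot be told apart. An adaptase kit is listed in the labels for INO80 samples and not for inputs.

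Peaks were joined to gene spans (start to end) of the RefSeq GRCm38.p6 table at a 10 kb window, and peaks of the replicates were merged into regions where they shared 1 bp or more. The overlap functions were tested on simulated intervals. Python 3.11.15, pandas 2.3.3, NumPy 2.4.6, SciPy 1.17.1 and matplotlib 3.10.9 were used. The expressed parent and DMR class of each gene came from general knowledge of mouse imprinting and not from the files. The genes and lists were chosen with earlier results of these data known. Genes with a peak in both replicates or named in the reproducible set are given with both folds, those with a peak in 1 replicate with that fold, and the others by name and distance. No test was run. Alternatives were the window, gene ends only, a q of 0.001 or less, overlap of replicate peaks, and leaving out each replicate.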

Additional observations from a re-analysis of the deposited data

How the results depend on the processing

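Of 59 alternative values over 13 results, 58 stayed within 1.5 times the value reported or within the spread between replicates. The exception was the count of genes outside the maternally methylated class with a peak in both replicates, which was 13 with only peaks within 1 kb of a gene end counted, against 20 in the 10 kb window; that setting takes in less of each gene by construction. The count over all 48 genes, 33 in the report, was 31 with a 1 kb window, 36 with 20 kb, 23 with gene ends only and 24 with peaks held to a q of 0.001 in each replicate. It was 36 without replicate 1 and 33 without replicate 2. The genes lost at the stricter q were Kcnq1ot1, Phlda2, Slc22a18, Mest, Copg2, Dlk1, Dio3, Inpp5f and Kcnk9, and those gained at 20 kb were Ins2, Mcts2 and Impact. At that q, 9 maternally and 11 paternally expressed genes were left. A peak in 1 replicate alone does not show a difference between the replicates, which was not tested; files without read counts per region give no limit of detection. No paired analysis was possible because no result comes from a test between groups and peaks of the inputs were not analysed here.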

Other observations

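A further list of 43 imprinted genes, of which 42 were matched to the gene table, had 10 named in the reproducible set (23.8%). A peak within 10 kb in both replicates was found for 15 (35.7%). Among all genes these shares were 7.72% and 21.3%, and among all protein-coding genes 11.7% and 26.8%. The matched genes were longer, with a median span of 39638 bp against 12757 bp for all genes. The part of gene length in these shares was not tested. Klf14, a maternally expressed transcription factor gene near Mest, had folds of 5.28 in replicate 1 and 8.75 in replicate 2. Atp10a, a phospholipid flippase gene next to Ube3a, had 5.91 and 8.28. Both were above the Ube3a and Mest values in each replicate. Gab1, a signalling adaptor, had 5.14 and 7.64, and Ampd3, an AMP deaminase, had 4.45 and 5.54. Sfmbt2, a Polycomb-group gene, had 3.62 and 5.23 with a reproducible peak 5809 bp wide. H13, the signal peptide peptidase gene that hosts Mcts2, had 4.01 and 4.66 at its own start. Jade1 (3.05 and 4.53), Smoc1 (3.29 and 4.35), Qpct (2.93 and 3.78) and Begain (3.13 and 4.80, at 15016 bp from the start) completed the 10.

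Of 25 genes that set, keep or read imprints, 4 were named in the reproducible set (16.0%) and 11 had a peak within 10 kb in both replicates (44.0%). The shares were 7.72% and 21.3% of all genes, and 11.7% and 26.8% of all protein-coding genes. These 25 genes had a median span of 41907 bp, against 12757 bp for all genes, and the part of length was not tested. Dnmt1, the maintenance DNA methyltransferase, had folds of 2.86 and 4.27, and Dnmt3b, a de novo methyltransferase, had 3.36 and 4.14. Tet2 and Tet3, which encode enzymes that oxidise methylated cytosine, were also named. Tet2 had folds of 4.30 and 5.14, and Tet3 had 3.18 and 3.67. These lists were written with earlier results of these data known, and no test was made.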
